A study of Homo sapiens with 9 samples.

Results

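Basal and simple-epithelial keratins were followed in HaCaT cells, an immortalized line of human epidermal keratinocytes. The 7 genes were chosen by name: KRT5, KRT14 and KRT15 as keratins of the basal layer of stratified epithelia, and KRT7, KRT8, KRT18 and KRT19 as keratins of simple epithelia. The choice was made with earlier results of these data known. These genes are 7 of the 40 keratin genes, and of the 16199 genes, that had an entry in at least 1 library. RNA was sequenced from wild-type HaCaT cells in 3 groups of 3 libraries. Untreated cells were kept in serum-free medium, EGF-treated cells received epidermal growth factor at 10 nM for 24 h, and bleogen pB1-treated cells received the cactus peptide bleogen pB1 at 1 µM for 24 h. Cells were grown in medium with serum and were treated after they had reached confluence, and the study compared the peptide with EGF as another agonist of the EGF receptor. All groups share the same line, so that 1 immortalized genetic background stands for keratinocytes here, and whether the 3 replicates of a group came from separate cultures is not given in the sources used here. The p-values therefore measure the spread between these libraries, which may be technical.

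Keratins are the intermediate filament proteins of epithelial cells. A filament is built from pairs of 1 type I and 1 type II keratin, so the genes are usually expressed as partners: KRT5 (type II) with KRT14 or KRT15 (type I) in basal keratinocytes, and KRT8 or KRT7 (type II) with KRT18 or KRT19 (type I) in simple epithelia such as glands and the lining of inner organs. Simple-epithelial keratins are scarce in adult interfollicular epidermis and are known from fetal epidermis, cultured keratinocyte lines and carcinomas.

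The genes lie in the keratin gene clusters of chromosomes 12 and 17 (GRCh38, canonical transcripts of GENCODE release 44). On chromosome 12, KRT7 (NCBI gene 3855) occupies bases 52233243 to 52248921, KRT5 (3852) bases 52514575 to 52520394, KRT8 (3856) bases 52897191 to 52905076 and KRT18 (3875) bases 52949118 to 52952906. KRT18 is the only type I gene of the chromosome 12 cluster, and its start lies 44042 bases from that of KRT8. On chromosome 17, KRT15 (3866) occupies bases 41513745 to 41518890, KRT19 (3880) bases 41523617 to 41528308 and KRT14 (3861) bases 41582279 to 41586895. The starts of KRT15 and KRT19 are 9418 bases apart. Longer transcripts of KRT8 run over KRT18 on the opposite strand, and KRT7-AS overlaps KRT7 on the opposite strand. The library protocol marks strand, but whether the counting used it is not given in the sources used here, and reads of such overlaps cannot be told apart.

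KRT5 was the most abundant of the 7 genes in untreated cells, and its start is therefore shown. RefSeq (GRCh38.p14) gives the 250 bases before the KRT5 start, chr12:52520395-52520644 on the minus strand, as follows, with the only match to ATAAAA in capitals.
KRT5: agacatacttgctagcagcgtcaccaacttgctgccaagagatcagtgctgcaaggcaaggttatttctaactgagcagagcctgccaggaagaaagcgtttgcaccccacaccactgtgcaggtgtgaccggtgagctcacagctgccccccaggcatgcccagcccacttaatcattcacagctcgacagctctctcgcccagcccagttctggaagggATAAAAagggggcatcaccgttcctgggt
The capitals begin 29 bases before the start. The motif was picked after the sequence had been read, and 14.9% of the 34943 RefSeq promoters hold it in the same window on either strand. The TATA box letters TATAAA had no match in these 250 bases, against a match in 10.8% of all promoters. The AP-1 letters TGANTCA (6.59% of all promoters) and the GC box letters GGGCGG (42.5%) had none on either strand. Nor did the AP-2 letters GCCNNNGGC, which 19.7% of all promoters hold. The promoter table matched KRT5 and KRT8 by symbol. The KRT8 entry starts 21393 bases from the canonical start and is not shown, and KRT14, KRT15, KRT7, KRT18 and KRT19 had no entry.

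The libraries held 20288417 to 21320994 expected counts (median 20629237), so that 3 counts, the most that a listing at 0 allows, correspond to 0.141 to 0.148 CPM (counts scaled to library size). Such floors cover counting error only. All 7 keratins passed the filter on low counts, and together they took 1.47% ± 0.0571 (SD, n = 3) of the counts of untreated cells. All 10 keratinocyte and epithelial markers were expressed in every group, at a summed 10470 to 15050 CPM, so the data do not go against the label. KRT5 and KRT14 are among these 10 and gave most of the sum, which thus rests largely on keratins reported here. The other markers on that list also passed the filter on low counts. Markers of other cells were low. Of 7 fibroblast markers, 3 passed the filter on low counts and summed to 7.52 to 8.99 CPM without treatment, 1.25 to 1.95 CPM with EGF and 6.08 to 8.65 CPM with bleogen pB1. Of 4 endothelial markers, 2 passed and summed to 3.10 to 4.78, 0.241 to 0.453 and 0.975 to 1.82 CPM in the same order. Of 5 immune markers, 2 passed and summed to 12.2 to 13.7, 20.2 to 22.1 and 11.9 to 12.4 CPM, while 2 of 5 melanocyte markers passed and summed to 5.14 to 8.88 CPM over all 9 libraries. Of the markers of these other cells that did not pass, the highest count in any library was 9, for LUM. Among them, PTPRC, CD3E, TYR and PDGFRA had at most 6 counts. TYR was at 0 throughout. The part of these markers in the keratin results was not tested. In bulk RNA, fewer cells that express a gene and less of its RNA per cell cannot be told apart.

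Levels between genes were compared as FPKM, which divides counts by gene length. In untreated cells the mean levels fell into the order KRT5, KRT19, KRT14, KRT8, KRT7, KRT18 and KRT15, and no neighbours in that order overlapped over the 3 libraries. KRT5 stood at rank 6 of all genes by mean FPKM and KRT15, the lowest of the set, at rank 247. In EGF-treated cells the order became KRT8, KRT14, KRT5, KRT19, KRT18, KRT7 and KRT15, with overlapping libraries only for KRT19 and KRT18. KRT8 moved from rank 99 to rank 10, KRT18 from 201 to 55, KRT5 from 6 to 24 and KRT15 from 247 to 1210. In bleogen pB1-treated cells the order was KRT5, KRT14, KRT19, KRT8, KRT7, KRT18 and KRT15, with overlapping libraries only for KRT14 and KRT19, and KRT5 again stood at rank 6.

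**Figure D1:**
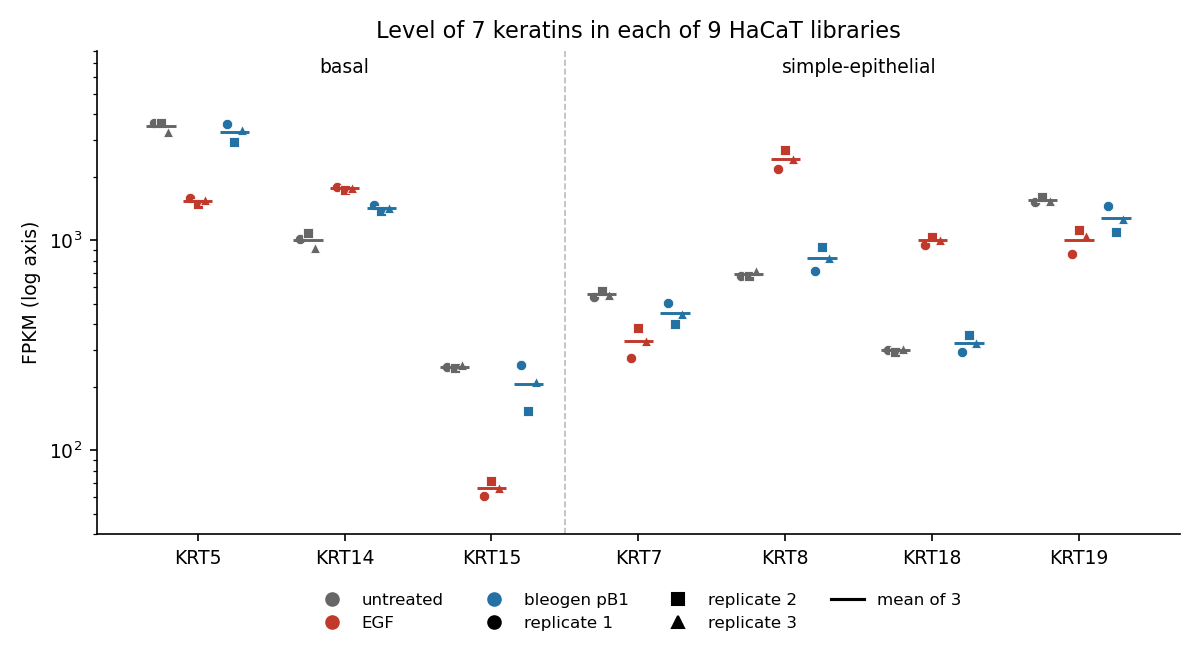
FPKM (log axis) of each of the 7 keratins in the 9 libraries. Each point is 1 library (shape gives the replicate, colour the group) and each bar the mean of 3: the EGF-treated libraries stand apart from the untreated ones for all 7 genes, above them for KRT14, KRT8 and KRT18 and under them for KRT5, KRT15, KRT7 and KRT19.

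EGF treatment changed all 7 keratins, in both directions within each class. KRT14, KRT8 and KRT18 rose, and KRT5, KRT15, KRT7 and KRT19 fell. In the edgeR quasi-likelihood test all of them passed both thresholds of the study, 0.05 for the adjusted p and 0.5 for |log2FC|, which is 1.41-fold. Of the 12394 genes tested, 15.1% passed both thresholds upward and 21.8% downward, and 69.2% had groups that did not overlap in FPKM, as all 7 keratins did. With upper-quartile scaling 30.2% of the genes called were higher, against 41.0% in the main fit. The median |log2FC| was 1.12 over the 7 keratins and 0.39 over all genes tested. The exact two-sided permutation test of 3 against 3 libraries gave p = 0.1 for each of the 7, the smallest it can give.

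Among the basal keratins, KRT5 encodes the type II keratin of basal cells, whose mutation causes epidermolysis bullosa simplex. Its level was 3636, 3612 and 3270 FPKM in the untreated libraries and 1589, 1492 and 1560 FPKM in the EGF-treated libraries. Every EGF-treated library was under every untreated library. The fall was 2.17-fold (log2FC = -1.12 ± 0.081 (SE), adjusted p = 1.7e-07, edgeR). KRT14, the type I partner of KRT5 in basal cells, was at 1020, 1082 and 922 FPKM without treatment and at 1788, 1746 and 1782 FPKM with EGF. The groups did not overlap, and the EGF-treated libraries differed from each other by less than the untreated ones (SD of 23.0 against 80.7 FPKM). KRT14 rose 1.84-fold (log2FC = 0.88 ± 0.069, adjusted p = 3e-07, edgeR), so that the usual partners moved in opposite directions. KRT15, a type I keratin of basal cells that is also used as a marker of hair follicle stem cells, was at 250, 246 and 254 FPKM in untreated and at 61.0, 71.8 and 66.3 FPKM in EGF-treated cells. Its fall of 3.60-fold (log2FC = -1.85 ± 0.138, adjusted p = 2.2e-07, edgeR) was the largest of the 4 decreases.

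Among the simple-epithelial keratins, KRT8 and KRT18 encode the pair that is found in nearly all simple epithelia. KRT8 was at 677, 673 and 718 FPKM in untreated and at 2178, 2707 and 2435 FPKM in EGF-treated libraries. KRT18 was at 301, 294 and 305 FPKM in untreated and at 956, 1041 and 1009 FPKM in EGF-treated libraries. Both genes were higher in every EGF-treated library than in any untreated library. KRT8 rose 3.71-fold (log2FC = 1.89 ± 0.098, adjusted p = 8e-09, edgeR) and KRT18 3.51-fold (log2FC = 1.81 ± 0.069, adjusted p = 5.9e-10, edgeR). The ratio of their levels was 2.30 ± 0.0548 (SD, n = 3) in untreated and 2.43 ± 0.162 in EGF-treated libraries, with overlapping values.

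KRT7 and KRT19, a type II and a type I keratin of glandular and ductal epithelia, went the other way. KRT7 was at 541, 571 and 550 FPKM in untreated and at 277, 382 and 332 FPKM in EGF-treated libraries. KRT19, the smallest of the keratins and without the usual tail domain, was at 1525, 1605 and 1537 FPKM without and at 860, 1122 and 1049 FPKM with EGF. The groups did not overlap for either gene, and EGF replicate 1 was the lowest library for both. KRT7 fell 1.60-fold (log2FC = -0.68 ± 0.108, adjusted p = 0.00012, edgeR) and KRT19 1.47-fold (log2FC = -0.55 ± 0.107, adjusted p = 0.00051, edgeR). KRT19 was the member nearest to the fold threshold: without EGF replicate 1 its log2FC was -0.45 (adjusted p = 0.0012, edgeR), short of it. The KRT7 to KRT19 ratio was 0.356 ± 0.00151 in untreated and 0.327 ± 0.0127 in EGF-treated libraries.

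The changes of single genes left the summed level of the 7 keratins much the same while its makeup moved. It came to 7863 ± 275 FPKM (SD, n = 3) without treatment, 8168 ± 430 FPKM with EGF and 7793 ± 510 FPKM with bleogen pB1, and the 3 groups overlapped. The 4 simple-epithelial keratins summed to 3099 ± 50.4 FPKM in untreated and 4782 ± 492 FPKM in EGF-treated libraries, and the 3 basal keratins to 4764 ± 276 and 3385 ± 67.4 FPKM. The simple-epithelial share of the 7 was 38.3%, 38.9% and 41.2% in the untreated, 55.4%, 61.3% and 58.6% in the EGF-treated and 35.9%, 38.4% and 36.4% in the bleogen pB1-treated libraries. The EGF-treated libraries thus held the larger part of this keratin RNA as simple-epithelial keratins, and the untreated and bleogen pB1-treated ones as basal keratins. The higher simple-epithelial sum with EGF came from KRT8 and KRT18 alone, since KRT7 and KRT19 fell. Sums and ratios over the set are given as a description with no test.

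By gene, KRT5 made up 44.6% ± 1.24 of the sum in untreated and 19.0% ± 1.59 in EGF-treated libraries, and KRT8 8.79% ± 0.633 and 29.8% ± 1.69. The ratio of KRT5 to KRT14 was 3.48 ± 0.126 without treatment, 0.873 ± 0.0171 with EGF and 2.30 ± 0.160 with bleogen pB1, with no overlap between any of the groups. The KRT8 to KRT18 ratio with bleogen pB1, 2.54 ± 0.104, lay above all untreated libraries and overlapped those with EGF. KRT14 exceeded KRT15, the other basal type I keratin, by 4.03 ± 0.385 times in untreated and 26.8 ± 2.52 times in EGF-treated libraries. KRT8 to KRT5, the type II keratins of the simple and the basal pair, went from 0.198 ± 0.0193 to 1.58 ± 0.223. Over the 7 genes the ratio of type II to type I RNA came to 1.52 ± 0.0367 without treatment, 1.12 ± 0.0263 with EGF and 1.41 ± 0.0285 with bleogen pB1. Over all keratins listed it was 0.905 ± 0.0230, 1.03 ± 0.0213 and 0.794 ± 0.0486.

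**Figure D2:**
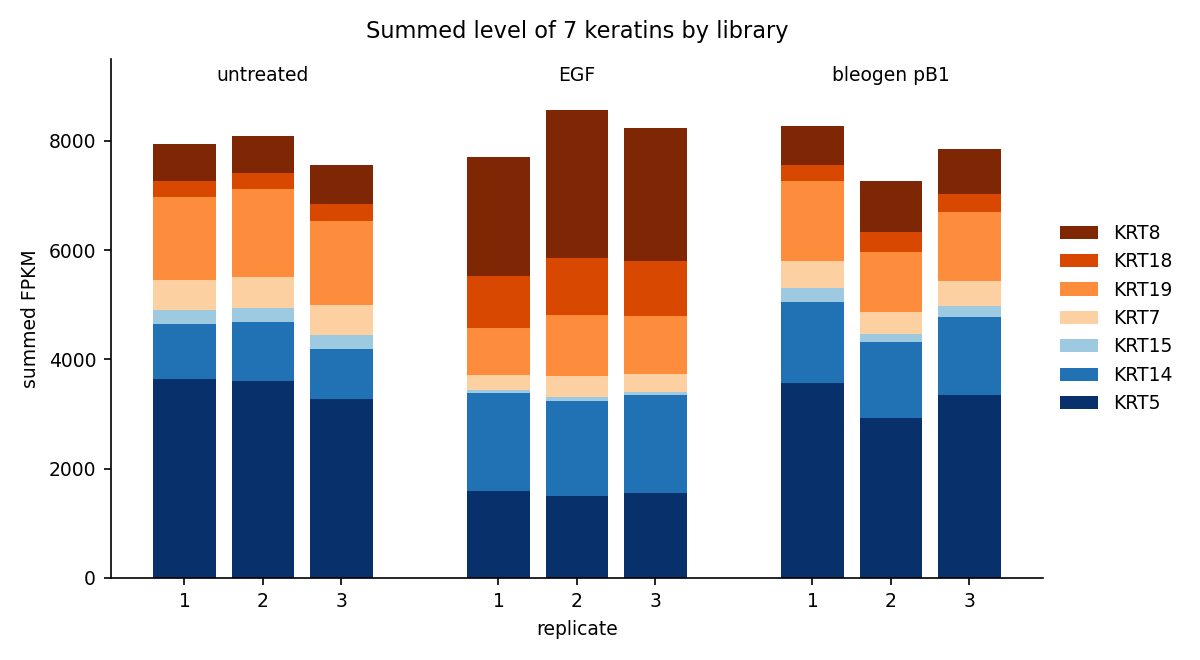
Summed FPKM of the 7 keratins in each library, stacked by gene, with basal keratins in blue and simple-epithelial keratins in orange and brown. Total heights lie between 7258 and 8561 FPKM, and the KRT8 and KRT18 blocks are tallest in the 3 EGF-treated libraries, where the KRT5 block is shortest.

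With bleogen pB1 the changes were smaller. None of the 7 keratins passed both thresholds, as 1.48% of all genes tested did, so that 0 of 7 is no result particular to the keratins. KRT14 alone passed the adjusted p (1.56% of all genes tested did so upward), and 5 of the 7 had an unadjusted p under 0.05, as 22.2% of all genes tested did. The median |log2FC| was 0.29 over the 7 keratins and 0.12 over all genes tested. With DESeq2 the count past both thresholds was again 0, and 3 keratins passed the adjusted p, as did 9.47% of the genes that DESeq2 tested. KRT14 was at 1475, 1384 and 1425 FPKM in the bleogen pB1-treated libraries, above all 3 untreated libraries. It rose 1.39-fold (log2FC = 0.48 ± 0.068, adjusted p = 0.0017, edgeR), just short of the fold threshold. Without untreated replicate 2 its log2FC was 0.54 (adjusted p = 0.0031, edgeR), past it.

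KRT14, KRT7 and KRT19 had bleogen pB1-treated libraries that did not overlap the untreated ones in FPKM, which was so for 29.1% of all genes tested. KRT7 was at 505, 398 and 447 FPKM, a log2FC of -0.32 with a 95% interval of -0.55 to -0.09 (adjusted p = 0.1, edgeR). KRT19 was at 1453, 1102 and 1266 FPKM, a log2FC of -0.31 with an interval of -0.54 to -0.08 (adjusted p = 0.11, edgeR). Their highest libraries lay close under the lowest untreated ones. The exact permutation p was 0.1 for these 3 genes, the smallest 3 against 3 libraries can give.

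The other keratins overlapped the untreated libraries. KRT5 was at 3576, 2933 and 3350 FPKM (log2FC = -0.11, interval -0.29 to 0.06, adjusted p = 0.43, edgeR) and KRT15 at 255, 154 and 212 FPKM (log2FC = -0.30, interval -0.58 to -0.01, adjusted p = 0.21, edgeR). The basal type II keratin and the second basal type I keratin were thus not called. KRT8 was at 716, 933 and 824 FPKM (log2FC = 0.23, interval 0.03 to 0.44, adjusted p = 0.17, edgeR) and KRT18 at 294, 353 and 323 FPKM (log2FC = 0.09, interval -0.06 to 0.23, adjusted p = 0.49, edgeR). These intervals leave out changes of the size seen with EGF for KRT5, KRT15, KRT8 and KRT18, but they do not show that the peptide left the genes as they were.

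The bleogen pB1-treated libraries differed among themselves, and replicates 1 and 2 were the extremes for every member. Replicate 2 was the lowest and replicate 1 the highest for KRT5, KRT14, KRT15, KRT7 and KRT19, replicate 1 was the lowest and replicate 2 the highest for KRT8 and KRT18, and replicate 3 lay between them for all 7. Relative to the mean the spread was widest for KRT15, at 207 ± 50.5 FPKM against 250 ± 3.96 in untreated cells. Replicate 1 was the library nearest to the untreated level for every member but KRT14. Without it, 12.4% of all genes tested passed the adjusted p in edgeR, and so did 5 keratins: KRT14 (log2FC = 0.45, adjusted p = 0.003), KRT15 (log2FC = -0.48, adjusted p = 0.017), KRT7 (log2FC = -0.42, adjusted p = 0.028), KRT19 (log2FC = -0.42, adjusted p = 0.02) and KRT8 (log2FC = 0.32, adjusted p = 0.031). None of these passed the fold threshold, and over all genes 436 then passed both thresholds against 183 with all libraries.

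EGF and bleogen pB1 were given at different doses, so their contrast compares the treatments as they were given. Past both thresholds, KRT8 (log2FC = 1.66 ± 0.097, adjusted p = 3.6e-08, edgeR) and KRT18 (1.73 ± 0.069, adjusted p = 1.5e-09) were higher with EGF, and KRT5 (-1.002 ± 0.081, adjusted p = 5.9e-07) and KRT15 (-1.55 ± 0.137, adjusted p = 1.4e-06) were lower. Over all genes tested, 10.8% passed both thresholds higher with EGF and 18.0% lower. KRT14 (0.40 ± 0.068, adjusted p = 0.00027, edgeR) and KRT7 (-0.36 ± 0.107, adjusted p = 0.012) passed the adjusted p with smaller changes, which makes 6 of 7 keratins where 58.2% of all genes tested passed. KRT19 did not pass, with a log2FC of -0.24, an interval of -0.47 to -0.01 and an adjusted p of 0.067 in edgeR. It passed with upper-quartile scaling (adjusted p = 0.022, edgeR), and its adjusted p ran from 0.014 to 0.28 over the alternatives. Without bleogen pB1 replicate 1, KRT7 did not pass either (adjusted p = 0.057, edgeR). Groups did not overlap in FPKM for 6 of 7 keratins, all but KRT19, and for 61.7% of all genes tested. The highest EGF library of KRT7, at 382 FPKM, lay just under the lowest bleogen pB1 library, at 398 FPKM, and its exact permutation p on CPM was 0.2. This contrast shares its EGF-treated and bleogen pB1-treated libraries with the comparisons above and adds no independent evidence to them.

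The other keratins of the clusters did not follow 1 pattern either. Of the 33 listed besides the 7, 10 passed the filter on low counts, and with EGF 3 of them rose and 3 fell past both thresholds. Of all genes tested, 15.1% did so upward and 21.8% downward. KRT6A and KRT16, which keratinocytes turn on at wound edges, rose by 2.29 ± 0.081 (adjusted p = 3.8e-10, edgeR) and 1.95 ± 0.142 (adjusted p = 1.7e-07) on the log2 scale. KRT10, a keratin of differentiating suprabasal cells, rose by 0.67 ± 0.123, while its partner KRT1 changed by -4.08 ± 0.337, from 113 to 166 counts in the untreated to 6 to 12 counts in the EGF-treated libraries. KRT4 and KRT13, the partners of the suprabasal mucosa, changed by -3.56 ± 0.222 and -1.90 ± 0.149. KRT17, the partner of KRT6 keratins in wounds, went against KRT6A and KRT16 and fell (log2FC = -0.46 ± 0.104, adjusted p = 0.0016, edgeR). With bleogen pB1, KRT16 (log2FC = 0.93 ± 0.147, adjusted p = 0.0036, edgeR), KRT1 (0.83 ± 0.211, adjusted p = 0.048) and KRT6A (0.52 ± 0.078, adjusted p = 0.0026) rose past both thresholds, and none of the 10 fell. Of all 12394 genes tested, 1.48% passed both thresholds with bleogen pB1, 27 genes higher and 156 lower. That none of the 10 fell is therefore no result particular to these keratins. KRT17 rose with bleogen pB1 past the adjusted p alone (log2FC = 0.475 ± 0.104, adjusted p = 0.027, edgeR), opposite to its fall with EGF. It was higher with bleogen pB1 than with EGF (log2FC of EGF against bleogen pB1 = -0.94 ± 0.105, adjusted p = 9.5e-06, edgeR). As a share of all keratin FPKM, KRT8 and KRT18 made up 9.40% ± 0.693 without treatment, 33.1% ± 1.48 with EGF and 10.4% ± 2.16 with bleogen pB1.

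Neighbours in the clusters did not always share a direction with EGF. The genes KRT8 and KRT18 both rose and KRT15 and KRT19 both fell, but KRT14 rose in the same cluster as KRT15, and KRT5 fell next to KRT6A. Sequence shared between genes bears on some of these counts. Of the 50-base windows of the canonical transcript, 39.0% of KRT8 and 35.3% of KRT18 occurred also in another keratin or a keratin pseudogene, nearly all of them in the 51 KRT8 and 67 KRT18 pseudogenes of the annotation, none of which had an entry of its own in the data. For KRT14 the share was 21.7%, mainly with KRT16 and its pseudogenes, and for KRT5 4.52%, with KRT6 genes, while KRT19, KRT15 and KRT7 shared 1.79%, 1.02% and 0.444%. Expected counts were whole numbers in every library for KRT8 and KRT18 and fractional in every library for KRT5 and KRT14. How reads that fit several genes were divided is not given in the sources used here, and the levels of KRT8, KRT18, KRT14 and KRT5 are uncertain to that extent. KRT16 itself was at 4.01 FPKM in untreated and 14.8 FPKM in EGF-treated cells, against 1008 and 1772 FPKM for KRT14.

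The filament partners outside the keratin family were counted from fixed lists. Of 12 proteins that anchor or link keratin filaments, 1 rose and 3 fell past both thresholds with EGF (median log2FC = -0.20, against -0.01 over all genes tested). All genes tested passed both thresholds at shares of 15.1% upward and 21.8% downward. PLEC (plectin), which ties keratins to hemidesmosomes, rose by 1.72 ± 0.103 (adjusted p = 3.1e-08, edgeR), while DST, whose epithelial isoform does so too, changed by -1.09 ± 0.109 (adjusted p = 2.7e-06) and DSP (desmoplakin), which ties them to desmosomes, by -0.70 ± 0.094 (adjusted p = 2.8e-05). TCHP (trichoplein), a keratin-binding protein, changed by -0.73 ± 0.213 (adjusted p = 0.0085). Of 9 proteins that fold, turn over or bind keratins, none rose and 4 fell past both thresholds (median log2FC = 0.15). They were the small heat shock protein HSPB1 (-1.76 ± 0.138), the ubiquitin ligase TRIM21 (-1.41 ± 0.110), the death receptor adaptor TRADD (-0.79 ± 0.094) and the kinase PRKCE (-0.59 ± 0.170). The other 5 were higher past the adjusted p, with changes under the fold threshold. The share of all genes tested that passed the adjusted p alone is not reported here, so this count has no background beside it.

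Of 10 genes listed for adhesion of basal cells, 7 rose and 1 fell past both thresholds with EGF (median log2FC = 0.69). Among them were the laminin chain LAMA3 (2.00 ± 0.064) and the integrin chains ITGA6 (1.30 ± 0.072) and ITGA3 (0.92 ± 0.060), all at adjusted p of at most 6.4e-08 in edgeR. Past the adjusted p alone, 8 of the 10 were higher and 2, CDH3 (-0.50 ± 0.064) and CD151 (-0.41 ± 0.062), were lower. The share of all genes tested that passed the adjusted p alone with EGF is not reported here. Past both thresholds that share was 15.1% upward and 21.8% downward. Of 19 transcription factors of keratin genes and keratinocyte fate, 8 rose and 4 fell past both thresholds (median log2FC = 0.27). FOSL1, an AP-1 subunit, rose by 3.50 ± 0.134 (adjusted p = 6.2e-10, edgeR), KLF5 by 1.18 ± 0.066 (adjusted p = 1.6e-08) and JUN by 0.94 ± 0.093 (adjusted p = 2.4e-06), and ELF3, an epithelial ETS factor, changed by -2.82 ± 0.138 (adjusted p = 5.1e-09). Of 13 other intermediate filament genes, 6 passed the filter on low counts, and with EGF the nuclear lamin gene LMNA rose by 0.82 ± 0.071 while SYNM (synemin) and NES (nestin), both at low levels, changed by -0.81 ± 0.154 and -1.21 ± 0.303. With bleogen pB1 no gene of these 5 lists passed both thresholds, as 1.48% of all genes tested did, so that this is no result particular to the lists. Past the adjusted p alone were ITGA6 (0.47 ± 0.072, adjusted p = 0.0028, edgeR), PKP1 (0.25 ± 0.051, adjusted p = 0.019), KLF5 (0.29 ± 0.066, adjusted p = 0.032) and TRIM21 (-0.44 ± 0.105, adjusted p = 0.039). Of all genes tested, 4.11% passed the adjusted p with bleogen pB1.

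Genes with the pattern most like each keratin were named by Pearson's r of log2 CPM over the 9 libraries, among 10867 genes with a mean of at least 50 counts. Among the genes closest to KRT8 were DVL1 and GNA15 (r = 0.999 for each), and KRT18 was closest to ADAM8, EMP1 and FSCN1 (r = 0.999). KRT5 was closest to SPARC, EFEMP1 and UPK3B (r = 0.998), KRT15 to ANO9, IFT140 and SLC39A11 (r = 0.997 to 0.999) and KRT14 to UNC13D, SSU72 and SULF2 (r = 0.984 to 0.987). KRT7 was closest to NOP53, MAGEF1 and CCDC115 (r = 0.992 to 0.994), and KRT19 to MAGEF1, KRT7 and PRSS8 (r = 0.987 to 0.990). KRT19 was thus the only member with another member among its 3 genes, although KRT8 and KRT18 had a higher r with each other (0.995). The 9 points share the split between the 3 EGF-treated libraries and the other 6, and between 389 genes for KRT19 and 2167 for KRT8 had r over 0.9. These values are a description of the libraries.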

How the data were processed

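RNA of 9 HaCaT libraries was sequenced by BGI. Per the labels, libraries were made from oligo dT-selected RNA with strand marked by dUTP, and reads were mapped by the authors to GRCh38.p12. In each deposited table, expected counts are unscaled gene estimates, and the deposited FPKM values are scaled to gene length and library size. The counting tool is not given in the sources used here. A gene without an entry in a library was counted as 0 in it.

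Rounded counts went into edgeR 4.0.16 under R 4.3.3 (filterByExpr, TMM factors of 0.964 to 1.02, glmQLFit and glmQLFTest, all 9 libraries in 1 fit with 6 residual degrees of freedom, Benjamini-Hochberg adjustment over 12394 genes). The SE was |log2FC| divided by the square root of F. The thresholds, 0.05 for the adjusted p and 0.5 for |log2FC|, are those the study used with DESeq2. Rose and fell mean that the adjusted p was passed. Exact permutation tests compared mean CPM of 3 against 3 libraries, two-sided. Intervals are at 95%.

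Alternatives were DESeq2 1.42.0, other scalings and filters, limma 3.58.1 on log2(FPKM + 1) and log2(FPKM + 0.1), a replicate block, and leaving out each library. The fits were tested on simulated data. The 7 keratins and all gene lists were chosen with earlier results of these data known. In every list, genes past both thresholds were named by smallest adjusted p, at most 4 per list and comparison, and 3 similar genes per keratin were named by the highest r of log2 CPM (prior count 2). Some genes that these rules select are not reported here. Sequences came from RefSeq tables, and positions and 50-base windows from GENCODE release 44.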

Additional observations from a re-analysis of the deposited data

How the results depend on the processing

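Of 420 keratin fold changes recomputed, 415 kept their direction and their call past both thresholds, 5 changed side and 0 changed direction. The counts of keratins called with EGF, and between EGF and bleogen pB1, stayed within 1.5 times of the values given in every alternative run. The exceptions lie near a threshold. KRT19 with EGF fell short of the fold threshold without EGF replicate 1 (-0.45). KRT14 with bleogen pB1 reached it in limma on log2(FPKM + 1) (0.50), on log2(FPKM + 0.1) (0.51) and with a filter at FPKM of 1 (0.50), and without untreated replicate 2 (0.54), so that 1 keratin passed both thresholds in each of these settings, and 0 to 1 with a library left out. For bleogen pB1, 3 keratins passed the adjusted p in DESeq2 (KRT14, KRT7, KRT19), 2 with only the 6 libraries compared (KRT14, KRT7; 6.87% of all genes tested), and 1 to 5 with a library left out: 5 without bleogen pB1 replicate 1, 3 without EGF replicate 1 (7.65% of all genes tested) and 2 without EGF replicate 2 (7.32%). Over all genes, 183 passed both thresholds with bleogen pB1, 99 in limma on log2(FPKM + 1), and 102 to 436 with a library left out: 436 without bleogen pB1 replicate 1, 109 without its replicate 2, and 102 without its replicate 3 or without untreated replicate 1. The cause was not tested.

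Upper-quartile scaling moved the median log2FC of all genes with EGF to -0.12, from -0.01, and changed no keratin call past both thresholds. Between EGF and bleogen pB1, 7 keratins in place of 6 passed the adjusted p with upper-quartile scaling, without scaling, without a count filter and in limma with the FPKM filter, and 5 to 7 with a library left out. Deviations of same-numbered libraries from their group means had r of -0.03 to 0.21, over 0.1 in 2 of 9 pairs. With 3 libraries a group these values cannot decide whether the numbers pair the samples. The fit with a replicate block called 7 keratins with EGF, 0 with bleogen pB1 and 4 between them (6 past the adjusted p), and 4560, 186 and 3550 genes. With levels taken as counts over gene length, the basal sum with EGF was 3279, and the simple-epithelial sum was 2958 in untreated and 2725 in bleogen pB1-treated libraries. The other 69 of 72 sums and ratios moved by less than their SD. With 3 libraries a group, an exact test cannot go under p = 0.1, and depth did not limit the 7 keratins, whose spread between libraries sets their error.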
